A study of Mus musculus with 4 samples.

Results

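Pi16 adventitial fibroblasts made up 1780 of 7805 gated fibroblasts (22.8%) and of 38852 filtered cells (4.58%) in single-cell RNA sequencing of mouse colon. Members were chosen by measured counts, so the genes used for that are described below without a test. A cell entered with 200 or more detected genes and a mitochondrial share of counts no higher than 25%. A fibroblast had at least 3 of the 7 genes Col1a1, Col1a2, Col3a1, Dcn, Lum, Pdgfra and Dpt detected and no count of Ptprc, Epcam, Pecam1 or Myh11. A fibroblast became a member when its counts of Pi16, Has1, Mfap5, Cd248 and Scara5 summed to at least 2 and exceeded both its sum over Adamdec1, Tnc, Tcf21, Postn and Bmp4 and its sum over Ackr4, Inmt, Cilp, Grem1 and Gdf10. The same rule applied to the other two sums gave 3703 Adamdec1 fibroblasts and 2000 Ackr4 Grem1 fibroblasts, which serve below for comparison, and left 322 fibroblasts outside the 3 gates. Members numbered 412 and 371 in the CCl4 libraries and 495 and 502 in the control libraries.

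The CCl4 libraries came from colon of SPF mice that received carbon tetrachloride (CCl4), a solvent toxic to the liver, for 6 weeks starting at an age of 6 weeks. The series title describes these animals as having liver cirrhosis, and the files hold no liver measurement. The control libraries are labelled control only, with no age given, and vehicle, strain and sex are recorded for neither group. Each group has 2 libraries. Neither the number of animals behind a library nor whether libraries share animals is recorded, so p-values measure only the spread between libraries, which may be technical.

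Pi16-expressing fibroblasts are the fibroblasts of the adventitia, the loose connective tissue sheath around larger vessels, and they also occupy the deep layers of the bowel wall. Pi16 encodes a peptidase inhibitor family protein held at the cell surface. Has1 is a hyaluronan synthase, Mfap5 a protein of elastin-associated microfibrils, Cd248 the surface protein endosialin and Scara5 a scavenger receptor that takes up ferritin. Across mouse tissues such cells have been described as a reserve pool that can give rise to more specialised fibroblasts, and they are known for secreted matrix, complement and hyaluronan.

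The marker genes were detected in far more of the members than of the immune cells used for comparison. Pi16 was detected in 80.2% to 84.2% of members per library, Mfap5 in 83.9% to 87.6%, Cd248 in 75.2% to 79.9%, Has1 in 66.1% to 69.7% and Scara5 in 52.8% to 59.4%. Among Ptprc-positive immune cells, which should lack these genes, each of the 5 was found in no more than 0.828% of cells. The other fibroblasts were nearer. In Ackr4 Grem1 fibroblasts Mfap5 was found in 51.7% to 61.7%, Cd248 in 47.5% to 51.3% and Pi16 in 26.3% to 36.4%. Has1 was found there in 25.6% to 33.3% and Scara5 in 17.4% to 19.7%. In Adamdec1 fibroblasts Mfap5 was found in 25.7% to 33.1% and Cd248 in 20.1% to 23.6%. Pi16, Has1 and Scara5 were each found there in at most 3.97%. Median depth was 3665 to 4505.5 UMIs (transcript molecules counted) in members and 3379 to 3583 UMIs in immune cells. Thinned to 1000 UMIs in every cell, Pi16 was still found in 62.3% to 67.1% of members. These genes define the members, so their detection is a description and was not tested.

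Several genes outside the rule that mark adventitial fibroblasts were present in most members and at lower shares in the other gates. Clec3b was an exception. It was detected in 97.3% to 98.6% of members per library and 97.8% to 98.7% of Ackr4 Grem1 fibroblasts. In Adamdec1 fibroblasts it was found in 80.9% to 84.3%. Cd34, a surface sialomucin of vascular and adventitial progenitors, was detected in 83.8% to 87.4% of members per library, 76.2% to 78.9% of Ackr4 Grem1 fibroblasts and 34.7% to 39.1% of Adamdec1 fibroblasts. Cd55, which protects cells from complement, was found in 85.4% to 90.8% of members, 72.1% to 77.6% of Ackr4 Grem1 fibroblasts and 36.4% to 39.5% of Adamdec1 fibroblasts. The Ackr4 Grem1 fibroblasts thus came close to the members in both genes. Ly6c1 was found in 67.7% to 69.9%, 32.8% to 44.2% and 14.5% to 18.2% of these gates in the same order, and Sema3c, a guidance factor, in 67.9% to 75.0%, 46.3% to 52.9% and 22.8% to 23.7%. Dpp4, a surface peptidase widely used to mark these fibroblasts in other organs, was rare. It was detected in 3.43% to 5.18% of members, 0.473% to 1.67% of Ackr4 Grem1 fibroblasts and 0.319% to 0.740% of Adamdec1 fibroblasts. At 1000 UMIs the shares were 1.01% to 1.89% of members, 0% to 0.714% of Ackr4 Grem1 fibroblasts and 0% to 0.214% of Adamdec1 fibroblasts, so the members were highest among fibroblasts. Epithelial cells, which are known to express Dpp4, gave 1.25% to 1.97% at that depth.

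Markers of mesothelium, the serosal lining that shares several of these genes, were nearly absent. Msln, Upk3b and Lrrn4 were each detected in at most 0.797% of members in any library. The glial genes Sox10 and Gfap and the lymphocyte genes Cd3d and Nkg7 had no count in any member. Adamdec1 itself was found in 2.43% to 3.98% of members, against 85.03% to 86.2% of Adamdec1 fibroblasts. The border with the Ackr4 Grem1 fibroblasts was less sharp: Ackr4 was detected in 42.6% to 50.2% of members and in 60.2% to 74.1% of that gate. The marker sum of the members had a median of 18 to 22 counts, and 3 and 8 members of the CCl4 libraries and 4 and 6 of the control libraries stood at the limit of 2. A lead of a single count over the next sum was found in 21 and 30 members of the CCl4 libraries and 33 and 33 of the control libraries. Just outside, 20 and 28 fibroblasts of the CCl4 libraries and 33 and 31 of the control libraries had a marker sum of at least 2 that tied with a higher rival sum, and 4, 3, 4 and 4 fibroblasts, in the same order of libraries, led with a sum of 1.

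The 4 libraries held 13986 and 12464 barcodes in the CCl4 group and 10021 and 10038 in the control group, each with over 1000 counts. Summed over members, they gave 2100342 and 1670026 counts in the CCl4 libraries and 2343751 and 2561620 in the control libraries. The median mitochondrial share of members was 2.29% and 2.30% in the CCl4 libraries and 2.11% and 1.89% in the control libraries. Barcode names are running numbers, of which 8191 to 10738 recur between any pair of libraries, and 0 members had the same count profile as a cell of another library. Immunoglobulin transcripts set the first control library apart: the 8 plasma cell markers summed to 1734 and 2384 CPM in the CCl4 libraries, against 15060.0 and 2651 CPM in the control libraries. Markers of smooth muscle, mural cells, endothelium, macrophages, lymphocytes and glia had 0 calls between the groups and summed to at most 313 CPM in any library. Epithelial transcripts differed by group, with the 16 epithelial markers at 823 and 802 CPM in the CCl4 libraries, against 376 and 306 CPM in the control libraries.

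Among genes that the rule did not use, the 15 with the largest excess over the nearer of the other gates were led by Stmn4, Islr2, Efhd1, Adamts5 and Wnt10b, and in each of the 15 the lowest library of the members lay above the highest library of both other gates. Levels here are CPM, a gene's counts scaled to a common total per library, and this comparison is a description without a test because the gates were cut from the same cells. Stmn4, a microtubule-binding protein of the stathmin family best known from neurons, averaged 182 CPM in members, 12.2 CPM in Ackr4 Grem1 fibroblasts and 5.66 CPM in Adamdec1 fibroblasts. It was detected in 24.5% to 27.4% of members per library, so most members had no count of it at this depth. Islr2, a leucine-rich repeat membrane protein, averaged 75.7 CPM in members, 5.85 CPM in Ackr4 Grem1 fibroblasts and 1.29 CPM in Adamdec1 fibroblasts. Npy1r, a neuropeptide Y receptor, averaged 96.8, 17.3 and 2.46 CPM in the same order of gates.

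Adamts5, Emilin2 and Ptx3 encode extracellular proteins. Adamts5, a protease that cleaves the proteoglycans aggrecan and versican, ranged over 316 to 425 CPM in the members' libraries, 55.3 to 82.3 CPM in Ackr4 Grem1 fibroblasts and 42.5 to 52.6 CPM in Adamdec1 fibroblasts. Emilin2, an elastic fibre interface protein, ranged over 199.97 to 268, 55.3 to 71.6 and 7.43 to 14.3 CPM in these gates. Ptx3, a long pentraxin that binds complement and stabilises hyaluronan matrix, averaged 88.0 CPM in members, 12.4 CPM in Ackr4 Grem1 fibroblasts and 2.998 CPM in Adamdec1 fibroblasts. The ranges of these genes did not overlap between the members and either other gate.

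Wnt10b, Fst and Ackr3 were also among the 15. Wnt10b, a canonical Wnt ligand, averaged 59.8 CPM in members, 6.59 CPM in Ackr4 Grem1 fibroblasts and 1.38 CPM in Adamdec1 fibroblasts. Fst, follistatin, which binds activin, averaged 86.6, 13.9 and 12.8 CPM in this order. Ackr3, a receptor that removes the chemokine Cxcl12, stood at 611 to 629 CPM over the members' libraries, 156 to 210.1 CPM in Ackr4 Grem1 fibroblasts and 112 to 142 CPM in Adamdec1 fibroblasts. Cxcl12 itself ran the other way, at 144 to 176 CPM in members, 421 to 628 CPM in Ackr4 Grem1 fibroblasts and 1869 to 2112 CPM in Adamdec1 fibroblasts.

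The genes furthest below both other gates were C1qtnf3, Spon1, Sfrp1 and Ppp1r14a. C1qtnf3, a secreted C1q-related protein, averaged 132 CPM in members, 605 CPM in Ackr4 Grem1 fibroblasts and 757 CPM in Adamdec1 fibroblasts. Sfrp1, a secreted Wnt antagonist, averaged 249, 959 and 1201 CPM in these gates. Igfbp3, a carrier of insulin-like growth factors, was at 6.67 to 25.8 CPM in the members' libraries, against 51.0 to 74.8 CPM in Ackr4 Grem1 fibroblasts and 2322 to 2606 CPM in Adamdec1 fibroblasts. For Igfbp3 the gap to Adamdec1 fibroblasts was far wider than the gap to Ackr4 Grem1 fibroblasts.

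Of 13 listed hyaluronan genes other than Has1 in the files, 6 had every library of the members above every library of both other gates and 1 lay below them, beside 3.23% above among all 22488 genes with a count in the members. That share over all genes includes genes with few counts, which can hardly lie apart. Heat shock genes lay above both gates in 7 of 15 and immediate early genes in 10 of 34, so this was not particular to hyaluronan genes. Of 32 other adventitial genes, 24 lay above both gates, in a list chosen for such cells that also holds Ugdh and Gfpt2. Ugdh, which makes the glucuronic acid donor for hyaluronan, stood at 558 to 740.1 CPM in members, 198 to 238 CPM in Ackr4 Grem1 fibroblasts and 141 to 169 CPM in Adamdec1 fibroblasts. Gfpt2, an enzyme of the hexosamine pathway that supplies the other sugar, stood at 417 to 565, 171 to 208 and 33.9 to 48.6 CPM in these gates. Tnfaip6, which links heavy chains to hyaluronan, was at 538 to 696, 255 to 268 and 119.8 to 174 CPM. For each of these 3 genes the members' libraries all lay above the libraries of the other gates.

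**Figure D1:**
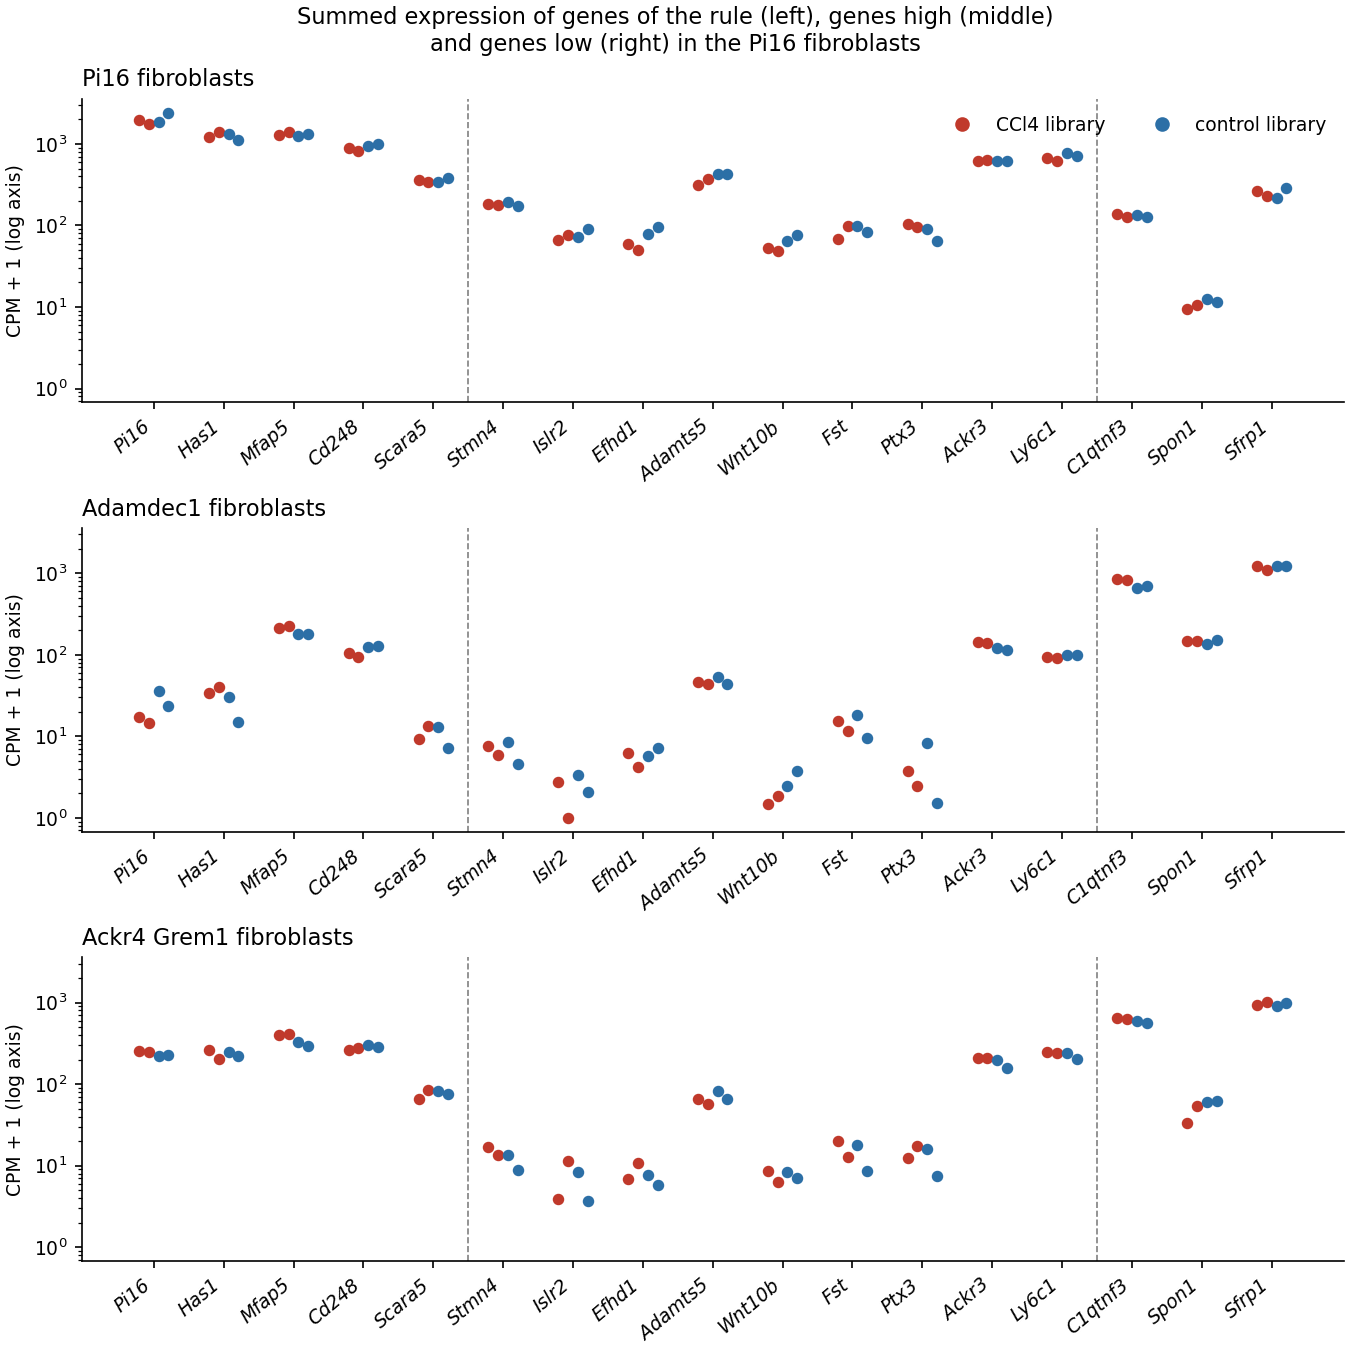
Level (CPM + 1, log axis) of each gene in each library, for the Pi16 fibroblasts (top), Adamdec1 fibroblasts (middle) and Ackr4 Grem1 fibroblasts (bottom). Each point is a library, CCl4 libraries in red left of control libraries in blue, and the dashed lines part the 5 genes of the rule, 9 genes high in the members and 3 genes low in them. Stmn4 averaged 182 CPM in the members, against 12.2 and 5.66 CPM in the Ackr4 Grem1 and Adamdec1 fibroblasts.

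The share of members among fibroblasts was nearly the same in both groups, while their share among all cells was lower with CCl4. Members were 22.2% and 22.4% of gated fibroblasts in the CCl4 libraries (exact binomial 95% intervals 20.3% to 24.1% and 20.5% to 24.5%), against 22.9% and 23.5% in the control libraries (21.2% to 24.8% and 21.7% to 25.3%). The means differed by -0.899 percentage points (two-sided exact permutation p = 0.333, the smallest that 2 against 2 libraries can give), and the intervals, which cover counting error only, overlapped. Among members with a Pi16 count the difference was -0.111 points, and the groups overlapped. Of all filtered cells, members were 3.73% and 3.56% in the CCl4 libraries, against 5.74% and 5.72% in the control libraries, a ratio of 0.636 (exact permutation p = 0.333). All gated fibroblasts together were 16.8% and 15.9% of cells in the CCl4 libraries, against 25.02% and 24.4% in the control libraries. Within the fibroblasts, the Adamdec1 gate held 50.9% and 53.4% in the CCl4 libraries, against 43.6% and 43.7% in the control libraries, and the Ackr4 Grem1 gate 22.6% and 20.4%, against 29.4% and 28.5%. The Pi16 gate was therefore the one whose share of fibroblasts moved least, a comparison of shares that sum to a whole and was not tested.

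Between CCl4 and control, 18 of 11199 genes tested passed the threshold in the members (0.161% of genes; edgeR quasi-likelihood test on counts summed per library, Benjamini-Hochberg adjusted p under 0.05). Of these, 14 were higher with CCl4 (0.125% of genes) and 4 were lower (0.0357%), and 728 genes had an unadjusted p under 0.05. The genes that rose were mostly products of goblet cells and colonocytes, and those that fell were Manf, Mical1, Iglc3 and Emb. No gene of the adventitial, collagen, elastic fibre, hyaluronan, complement or chemokine lists passed. With 0.161% of genes called, lists of these sizes are likely to hold no call. On simulated counts with the members' depth and spread, the same test found 58 of 100 genes changed 2-fold and 88 of 100 changed 4-fold. It made 3 false calls. Smaller changes could therefore be missed at this depth. The changed genes were drawn only from those above a minimum mean count, so recovery among lower genes was not measured. The count moved with the cells and libraries used: leaving out any 1 library gave 45 to 85 calls (68 without the first control library), and members with a Pi16 count alone gave 8, all of them among the 18 and higher with CCl4.

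Mucus genes led the rise. Muc2, which encodes the main secreted mucin, was at 113 and 106 CPM in the CCl4 libraries, against 33.3 and 22.3 CPM in the control libraries (log2 ratio 1.97, SE 0.21, edgeR adjusted p = 0.000358). Both CCl4 libraries lay above both control libraries. Sycn, a secretory granule protein, was at 49.99 and 88.0 CPM in the CCl4 libraries, against 8.53 and 5.86 CPM in the control libraries (log2 ratio 3.23, SE 0.33, edgeR adjusted p = 0.000358), the largest ratio of the genes that passed. Spink4, a goblet cell trypsin inhibitor, was at 55.2 and 51.5 CPM in the CCl4 libraries, against 16.2 and 16.8 CPM in the control libraries (log2 ratio 1.68, SE 0.24, edgeR adjusted p = 0.00418). Agr2, a disulfide isomerase needed for mucin folding, was at 49.99 and 53.3 CPM in the CCl4 libraries, against 20.9 and 17.6 CPM in the control libraries (log2 ratio 1.41, SE 0.24, edgeR adjusted p = 0.0209). In none of these genes did the groups overlap.

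Keratins and other genes of surface epithelium rose too. Krt8 was at 136 and 142 CPM in the CCl4 libraries, against 67.4 and 64.8 CPM in the control libraries (log2 ratio 1.05, SE 0.14, edgeR adjusted p = 0.00418). Lgals4, an epithelial galectin, was at 222 and 208 CPM in the CCl4 libraries, against 108 and 67.1 CPM in the control libraries (log2 ratio 1.29, SE 0.18, edgeR adjusted p = 0.00418). Guca2a, the precursor of guanylin, was at 166 and 161 CPM in the CCl4 libraries, against 81.1 and 53.9 CPM in the control libraries (log2 ratio 1.26, SE 0.17, edgeR adjusted p = 0.00418). In each of these genes the 2 CCl4 libraries were close together and lay above both control libraries. Krt19 (1.07), Oit1 (1.48), Cldn7 (1.70) and Klk1 (2.10) passed as well, with log2 ratios in parentheses. Klk1 and Cldn7 averaged under 50 CPM and are named here after their values were seen.

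Of the 14 genes that rose, 12 were over 5 times higher in Epcam-positive epithelial cells than in the members in every library, all but Cdk8 and Gm42418. In epithelial cells Muc2 itself stood at 1728 and 1628 CPM in the CCl4 libraries, against 1369 and 1845 CPM in the control libraries, where the groups overlapped. All 14 were also higher in both CCl4 libraries than in both control libraries among Ptprc-positive immune cells. These cells were taken without any count of Epcam, Pecam1, Myh11 or the 7 fibroblast genes. The share of all genes with this order in immune cells was not counted, nor the share with such an excess in epithelial cells. Muc2 in immune cells was at 114 and 142 CPM in the CCl4 libraries, against 31.7 and 41.3 CPM in the control libraries, and Krt8 at 177 and 173 CPM in the CCl4 libraries, against 92.8 and 79.2 CPM in the control libraries. Both genes had the same order of groups in immune cells as in the members, at similar levels. Of the 16 epithelial markers, 15 were tested in the members, 5 passed and all 15 had a positive log2 ratio, with a median of 1.09 beside 0.00 over all genes tested. Krt8 and Krt19 also stand in the mesothelial list, whose defining genes Msln, Upk3b and Lrrn4 were nearly absent from the members as given above. Muc2 was detected in 35.2% and 27.5% of members in the CCl4 libraries and in 9.70% and 8.57% in the control libraries, against 27.7% and 27.3% and 8.84% and 11.7% of immune cells in the same libraries, at the median depths given above. Thinned to 1000 UMIs, the Muc2 shares of members were 10.4% and 9.16% in the CCl4 libraries and 4.85% and 1.99% in the control libraries, and those of immune cells 10.6% and 11.0%, and 3.51% and 4.14%. The source of the Muc2 counts in the members was not tested.

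Cdk8 and a pair of noncoding RNAs also rose, and the pair, Gm26917 and Gm42418, is named after their values were seen. Cdk8, a kinase of the Mediator complex, was at 275 and 287 CPM in the CCl4 libraries, against 121 and 184 CPM in the control libraries (log2 ratio 0.87, SE 0.14, edgeR adjusted p = 0.0209). They lie beside each other at chr17:39843013-39846341 and chr17:39846958-39848788 (GRCm38, plus strand), and Gm42418 overlaps an annotated rRNA gene on the opposite strand. Gm26917 was at 1782 and 1477 CPM in the CCl4 libraries, against 1015 and 860.4 CPM in the control libraries (log2 ratio 0.78, SE 0.12, edgeR adjusted p = 0.00629) and Gm42418 at 2695 and 2792 CPM in the CCl4 libraries, against 1786 and 2067 CPM in the control libraries (log2 ratio 0.50, SE 0.09, edgeR adjusted p = 0.0255). All 3 were higher with CCl4 in immune cells as well, with Cdk8 there at 218 and 192 CPM in the CCl4 libraries, against 85.2 and 106 CPM in the control libraries. Cdk8 contains a processed pseudogene, Gm15739, on its own strand, so their reads cannot be fully told apart.

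**Figure D2:**
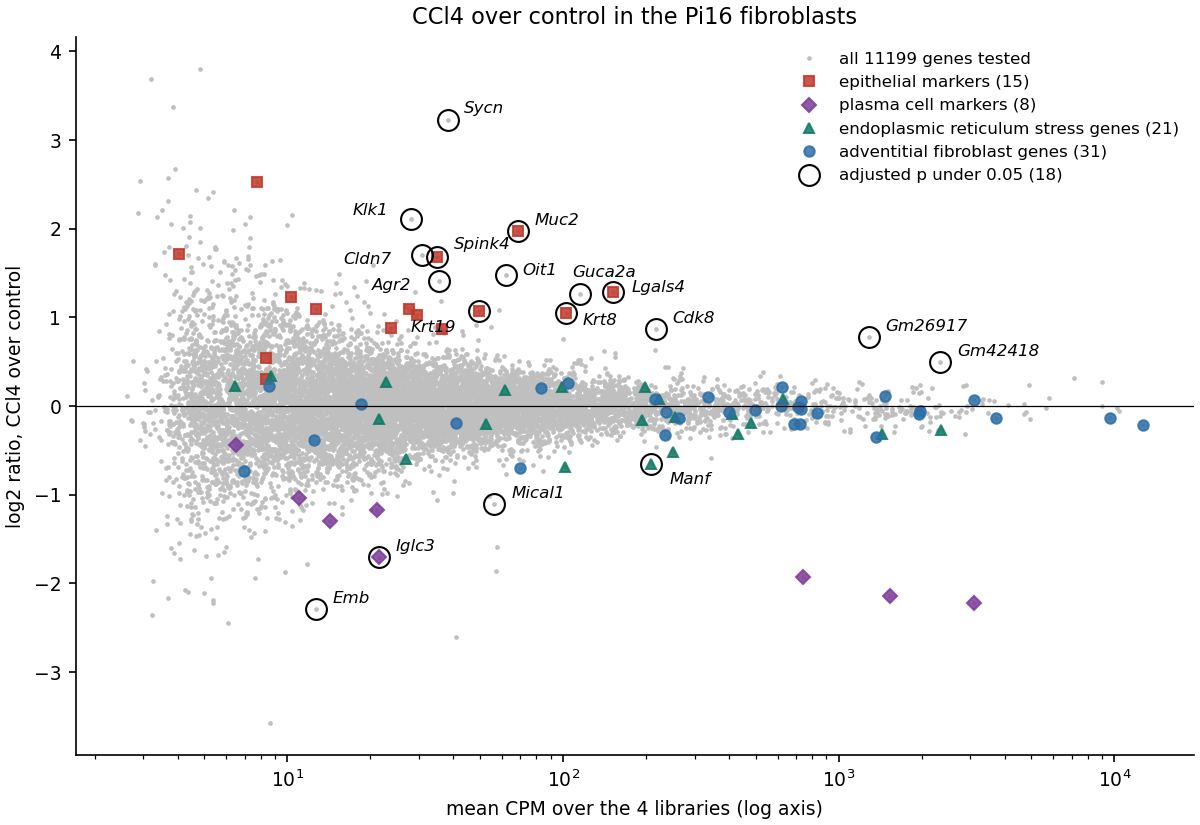
log2 ratio of CCl4 over control against the mean level (CPM over the 4 libraries, log axis) for the 11199 genes tested in the Pi16 fibroblasts. Circles mark the 18 genes past the threshold, squares epithelial markers, diamonds plasma cell markers, triangles endoplasmic reticulum stress genes and blue points adventitial fibroblast genes. Epithelial markers lie above 0 with a median of 1.09, while adventitial genes lie around 0 with a median of -0.06.

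**Figure D3:**
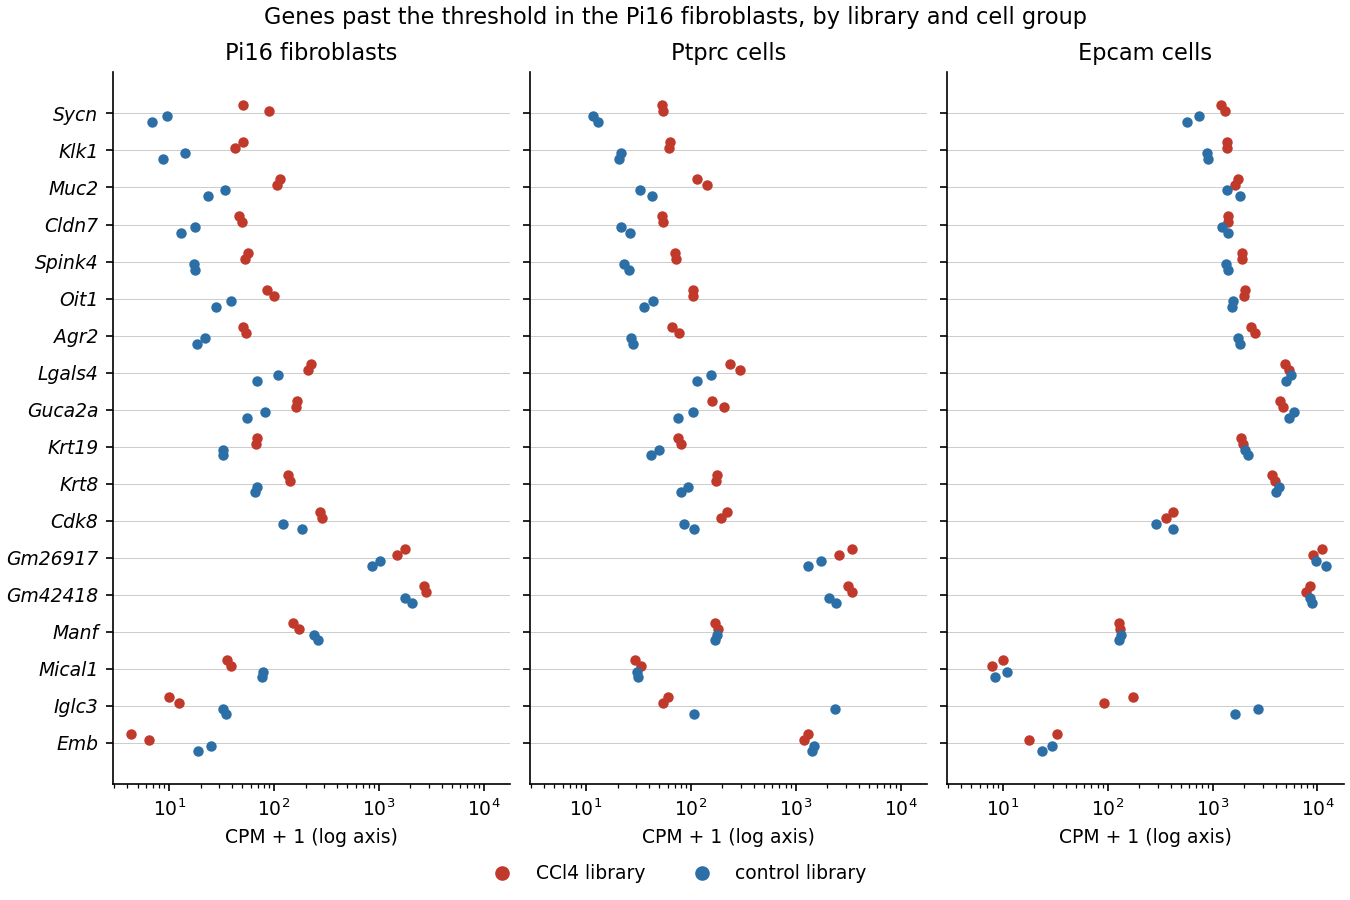
Level (CPM + 1, log axis) of the 18 genes past the threshold in the Pi16 fibroblasts (left), in Ptprc-positive immune cells (middle) and in Epcam-positive epithelial cells (right). Each point is a library, red for CCl4 and blue for control, with CCl4 above control in each row. Muc2 is higher in both CCl4 libraries in the members and in immune cells, while Manf is lower with CCl4 in the members and not in immune cells.

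Manf and Mical1 fell in the members and not in immune cells. Manf, a secreted chaperone of the endoplasmic reticulum (ER) that is induced when unfolded proteins build up, lies at chr9:106838312-106891979 on the minus strand and was at 152 and 174 CPM in the CCl4 libraries, against 241 and 263 CPM in the control libraries (log2 ratio -0.65, SE 0.11, edgeR adjusted p = 0.0265). The 2 CCl4 libraries lay below both control libraries. In immune cells Manf was at 170.2 and 182 CPM in the CCl4 libraries, against 178 and 167 CPM in the control libraries, where the groups overlapped. Mical1, an enzyme that oxidises and disassembles actin filaments, lies at chr10:41476314-41487032 on the plus strand and was at 34.3 and 37.7 CPM in the CCl4 libraries, against 77.7 and 75.7 CPM in the control libraries (log2 ratio -1.11, SE 0.19, edgeR adjusted p = 0.0239). In immune cells it stood at 28.3 and 32.4 CPM in the CCl4 libraries, against 29.4 and 30.7 CPM in the control libraries. The annotated spans of Manf and Mical1 overlap other genes, Dcaf1 and Rbm15b for Manf and Smpd2 for Mical1, and how such reads were assigned is not given in the labels or headers. Without the first CCl4 library the fall of Manf lost its call (edgeR adjusted p = 0.0655).

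Iglc3, an immunoglobulin light chain constant segment, was at 9.05 and 11.4 CPM in the CCl4 libraries, against 32.0 and 33.6 CPM in the control libraries (log2 ratio -1.70, SE 0.29, edgeR adjusted p = 0.0231). In immune cells it stood at 59.2 and 53.8 CPM in the CCl4 libraries, against 2353 and 107 CPM in the control libraries, with the first control library far above the rest. All 8 plasma cell markers had negative log2 ratios in the members, with a median of -1.50, and the first control library carried most of their summed level as given above. The part of such transcripts in the result was not tested. Emb, a chaperone protein for lactate carriers that blood cells express strongly, was at 3.33 and 5.39 CPM in the CCl4 libraries, against 23.9 and 17.96 CPM in the control libraries (log2 ratio -2.29, SE 0.43, edgeR adjusted p = 0.0464) and is named after its values were seen. Its call was lost without the first control library, in members with a Pi16 count, with stricter cell filters and with doublet removal. DESeq2 did not call it, and applying the rule to 1000 UMIs a cell turned its log2 ratio to 0.10. In immune cells Emb was at 1306 and 1186 CPM in the CCl4 libraries, against 1493 and 1422 CPM in the control libraries, far above its level in the members.

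ER chaperones are induced together through a promoter element, the ER stress response element (ERSE), read by ATF6 with NF-Y. The fall of Manf is therefore set beside the other genes of this system. Of 22 listed genes, 21 were tested in the members: 1 passed, Manf, 13 had negative ratios and the median log2 ratio was -0.14, beside 0.00 over all genes. Both CCl4 libraries lay below both control libraries in 7 of the 21 and above them in 5. Over all genes tested these shares were 17.1% and 19.8%. The letters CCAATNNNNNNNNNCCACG, searched on both strands, occur in 39 of 32534 RefSeq promoter windows of 300 bases (0.1199%), and in those of 7 of the 20 listed genes with a window, Manf not being among the 20 and not searched: Calr, Canx, Creld2, Dnajc3, Hsp90b1, Hspa5 and Pdia6. The shorter element ATTGGNCCACG occurs in 12 windows, Herpud1 among them. The windows of 3 genes are shown because these chaperone genes had negative log2 ratios like Manf. They run 5′ to 3′ from 250 bases before the transcript start to 50 after it in the RefSeq annotation of GRCm38.p6, with the match in capitals: Dnajc3 at chr14:118937682-118937981, Creld2 at chr15:88819396-88819695 and Hspa5 at chr2:34771840-34772139, all on the plus strand.
Dnajc3: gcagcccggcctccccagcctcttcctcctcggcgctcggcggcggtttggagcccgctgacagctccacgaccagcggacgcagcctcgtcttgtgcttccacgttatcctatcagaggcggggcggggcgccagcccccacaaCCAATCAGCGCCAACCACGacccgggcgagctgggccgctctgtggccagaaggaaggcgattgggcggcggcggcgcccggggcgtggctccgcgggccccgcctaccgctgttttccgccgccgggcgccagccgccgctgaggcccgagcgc
Creld2: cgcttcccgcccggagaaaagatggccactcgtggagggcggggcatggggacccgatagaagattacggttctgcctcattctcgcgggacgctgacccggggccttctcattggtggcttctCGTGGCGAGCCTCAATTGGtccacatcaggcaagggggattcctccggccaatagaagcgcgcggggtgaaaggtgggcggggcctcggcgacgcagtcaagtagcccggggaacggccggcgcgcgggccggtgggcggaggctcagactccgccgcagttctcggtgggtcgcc
Hspa5: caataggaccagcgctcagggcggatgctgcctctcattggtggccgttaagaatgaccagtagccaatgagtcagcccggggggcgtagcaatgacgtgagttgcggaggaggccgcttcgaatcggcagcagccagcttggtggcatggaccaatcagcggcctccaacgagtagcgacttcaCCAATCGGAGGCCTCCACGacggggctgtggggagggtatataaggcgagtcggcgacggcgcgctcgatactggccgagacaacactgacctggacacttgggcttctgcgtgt
The match begins 105 bases before the start in Dnajc3 and 65 bases before it in Hspa5, and it lies on the opposite strand in Creld2, 126 bases before the start. A match is a description of these letters and no evidence of binding.

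Dnajc3, a co-chaperone of the ER lumen, was at 198 and 217 CPM in the CCl4 libraries, against 311 and 274 CPM in the control libraries (log2 ratio -0.52, SE 0.12, edgeR adjusted p = 0.171). Creld2, a secreted ER stress protein, was at 89.99 and 65.9 CPM in the CCl4 libraries, against 139 and 110.5 CPM in the control libraries (log2 ratio -0.68, SE 0.18, edgeR adjusted p = 0.32). Both had lower values in both CCl4 libraries, and neither passed the threshold. Hspa5, the major ER chaperone BiP, was at 2133 and 2164 CPM in the CCl4 libraries, against 2509.7 and 2615 CPM in the control libraries (log2 ratio -0.27, SE 0.08, edgeR adjusted p = 0.494). Hsp90b1 was at 1328 and 1239.5 CPM in the CCl4 libraries, against 1548 and 1624 CPM in the control libraries (log2 ratio -0.32, edgeR adjusted p = 0.419) and Pdia6 at 394 and 377 CPM in the CCl4 libraries, against 475 and 471 CPM in the control libraries (log2 ratio -0.31, edgeR adjusted p = 0.534), again with groups that did not overlap and no call. Dnajb9 and Herpud1, of the same list, had positive log2 ratios of 0.21 and 0.08, neither called. Targets of the Atf4 branch did not share the direction of the fall: Atf4 had a log2 ratio of 0.08 and Ddit3 of 0.21, neither called.

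Manf passed in the other gates as well, where 0.664% (Adamdec1) and 0.376% (Ackr4 Grem1) of genes tested were called. It had log2 ratios of -0.997 in Adamdec1 fibroblasts and -1.08 in Ackr4 Grem1 fibroblasts (edgeR adjusted p = 0.000152 and 3.54e-05), against -0.65 in the members. Creld2 had -1.07 and -1.34 in those gates, both called. Hspa5, Hsp90b1, Pdia6 and Dnajc3 were also called lower in both other gates and not in the members. The gates share libraries, so these are values side by side. A test of the difference between gates did not call any of these 6 genes, and it was not shown that the members responded less. On simulated counts that test found 25 of 100 genes changed 2-fold in the members against Adamdec1 fibroblasts. Against Ackr4 Grem1 fibroblasts it found 23 of 100.

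Antigen presentation genes were lower with CCl4 in most cases without a call. Of 18 MHC class I genes tested, 16 had negative log2 ratios and the median was -0.25, beside 0.00 over all genes. Both CCl4 libraries lay below both control libraries in 12 of the 18, beside 17.1% of all genes tested. Their summed level was 2749 and 2797 CPM in the CCl4 libraries, against 3271 and 3099 CPM in the control libraries. Psmb8, a subunit of the immunoproteasome that cuts antigenic peptides, was at 49.0 and 43.1 CPM in the CCl4 libraries, against 81.1 and 74.2 CPM in the control libraries (log2 ratio -0.76, SE 0.18, edgeR adjusted p = 0.246). B2m, the light chain shared by MHC class I molecules, was at 1007 and 1016 CPM in the CCl4 libraries, against 1259 and 1124 CPM in the control libraries (log2 ratio -0.25, edgeR adjusted p = 0.696). Interferon response genes had a median of -0.19, with 19 of 28 negative and 0 called.

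Collagen genes leaned the other way. Of 20 tested, 16 had positive log2 ratios with a median of 0.15, both CCl4 libraries lay above both control libraries in 13 (19.8% of all genes tested), and 0 passed. The 21 listed collagens summed to 16043 and 16099 CPM in the CCl4 libraries, against 13735 and 14399 CPM in the control libraries. Col3a1, the fibrillar collagen of loose connective tissue, was at 5259 and 5428 CPM in the CCl4 libraries, against 4498 and 4469.8 CPM in the control libraries (log2 ratio 0.24, SE 0.08, edgeR adjusted p = 0.529), and Col1a2 at 3133 and 3133 CPM in the CCl4 libraries, against 2435 and 2839.6 CPM in the control libraries (log2 ratio 0.24, edgeR adjusted p = 0.656). Sparc, a matricellular protein that binds collagen, was at 8044 and 7850.2 CPM in the CCl4 libraries, against 5951 and 6673 CPM in the control libraries (log2 ratio 0.32, SE 0.07, edgeR adjusted p = 0.194). These groups did not overlap and none of the 3 genes was called. Col1a2 and Col3a1 are among the 7 genes used to call fibroblasts. Myofibroblast and repair genes had a median of -0.02, with 7 of 15 positive.

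No gene of the adventitial list was called between the groups, beside 0.161% of all genes tested. At that share a list of this size is likely to hold no call, so the absence says little about these genes. The 5 marker genes are fixed by the rule and are given without a test: Pi16 was at 1965 and 1746 CPM in the CCl4 libraries, against 1882 and 2421 CPM in the control libraries, and Has1 at 1229.8 and 1403 CPM in the CCl4 libraries, against 1334 and 1107 CPM in the control libraries. Both genes overlapped between groups. Of 31 other adventitial genes tested, 10 had positive and 21 negative log2 ratios, with a median of -0.06 and 0 calls. The groups did not overlap in 6 of them upwards and 12 downwards, beside 19.8% and 17.1% of all genes tested. Cd55 was at 1242 and 1181 CPM in the CCl4 libraries, against 1538 and 1511 CPM in the control libraries (log2 ratio -0.35, SE 0.09, edgeR adjusted p = 0.32), and Efhd1, a mitochondrial calcium sensor, at 58.1 and 49.1 CPM in the CCl4 libraries, against 77.2 and 95.6 CPM in the control libraries (log2 ratio -0.70, SE 0.18, edgeR adjusted p = 0.3). Both were lower in both CCl4 libraries and missed the threshold. Elastic fibre genes had a median of -0.02 with 8 of 22 positive, collagen processing enzymes 0.01 with 13 of 21 and small proteoglycans -0.03 with 4 of 9.

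Complement and hyaluronan genes, for which these cells are known, also gave no call, which is likely for short lists when 0.161% of genes are called. Complement was not highest in the members. The 15 listed complement genes summed to 8077 to 9636 CPM in the members' libraries and 8677 to 10262 CPM in Ackr4 Grem1 fibroblasts. In Adamdec1 fibroblasts they summed to 5343 to 6093 CPM. C3, the central complement component, was at 2672 and 2489 CPM in the CCl4 libraries, against 3084 and 3260.0 CPM in the control libraries (log2 ratio -0.31, SE 0.08, edgeR adjusted p = 0.336). C4b ran the other way at 581 and 502 CPM in the CCl4 libraries, against 449.7 and 447 CPM in the control libraries (log2 ratio 0.26, edgeR adjusted p = 0.728). The 13 complement genes tested had a median of -0.16, 9 of them negative. Of 12 hyaluronan genes tested, 8 had positive log2 ratios with a median of 0.14. Ugdh was at 601 and 740.1 CPM in the CCl4 libraries, against 558 and 586 CPM in the control libraries (log2 ratio 0.21, edgeR adjusted p = 0.761), with the second CCl4 library highest. Chemokine and cytokine genes had a median of 0.03 over 24 genes, with Il33, an alarmin of adventitial cells, at 299 and 308 CPM in the CCl4 libraries, against 308 and 283 CPM in the control libraries.

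Hbegf and Errfi1, a ligand and an inhibitor of the same receptor, missed the threshold narrowly. Hbegf, a ligand of the EGF receptor, was at 175 and 168 CPM in the CCl4 libraries, against 105 and 116 CPM in the control libraries (log2 ratio 0.62, SE 0.13, edgeR adjusted p = 0.0786). Errfi1, a feedback inhibitor of the same receptor, was at 229 and 295 CPM in the CCl4 libraries, against 171 and 164 CPM in the control libraries (log2 ratio 0.63, SE 0.13, edgeR adjusted p = 0.0786). Both were higher in both CCl4 libraries. The glucocorticoid and clock list, which holds Errfi1, had a median of 0.25 over 24 genes, 17 of them positive, with both CCl4 libraries above both control libraries in 12, beside 19.8% of all genes tested, and 0 called. Nr1d2, a clock repressor, was at 159 and 141 CPM in the CCl4 libraries, against 94.7 and 109.7 CPM in the control libraries (log2 ratio 0.54, edgeR adjusted p = 0.274), and Tsc22d3, a glucocorticoid target, at 168 and 158 CPM in the CCl4 libraries, against 122 and 118 CPM in the control libraries (log2 ratio 0.43, edgeR adjusted p = 0.458). The hour of tissue collection is not recorded in the labels. Growth factor genes had a median of 0.10, Wnt, BMP and TGF-beta genes 0.09, immediate early genes 0.12, heat shock genes 0.06, detoxification genes 0.05, adipogenic and lipid genes 0.12 and proteases with their inhibitors -0.01, each without a call. Mitochondrially encoded genes had a median of 0.21 with all 12 positive, beside the mitochondrial shares given above, and proliferation genes 0.31 with 9 of 14 positive.

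The effect of CCl4 in the members was then tested against its effect in each other gate, in a model over the 3 gates with the library as a block. Against Adamdec1 fibroblasts 15 of 13557 genes differed (0.111%), and against Ackr4 Grem1 fibroblasts 2 did (0.0148%). Grem1 is in both counts and is a gene of the rule, so its test is not used, which leaves 14 and 1. The genes whose effect was lower in the members included Cebpd, Nfkbia and the haemoglobins, and those with a higher effect included Igfbp5, C4b and Igfbp4.

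Cebpd, a transcription factor of the acute phase response, was at 214 and 213 CPM in the CCl4 libraries, against 229 and 190.1 CPM in the control libraries. In Adamdec1 fibroblasts it was at 552 and 598 CPM in the CCl4 libraries, against 276 and 279 CPM in the control libraries. Both CCl4 libraries were higher there, while the groups overlapped in the members (difference of log2 ratios -1.05, SE 0.12, edgeR adjusted p = 1.43e-05). Saa3, an acute phase serum amyloid, differed as well (difference of log2 ratios -3.72, SE 0.69, edgeR adjusted p = 0.0141), from levels of 15.2 and 77.8 against 1.71 and 57.8 CPM in the members and 23.7 and 152 against 2.05 and 5.14 CPM in Adamdec1 fibroblasts, CCl4 libraries given first. Saa3 varied between libraries of a group, and its call was lost without the second control library, without the library block and with the rule applied to 1000 UMIs a cell, with differences of -4.32 to -0.60 over the alternatives. Nfkbia, the inhibitor of NF-kappaB, differed by less (difference of log2 ratios -0.41, SE 0.08, edgeR adjusted p = 0.0467).

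Igfbp5, C4b and Igfbp4 had log2 ratios of opposite sign in the members and in Adamdec1 fibroblasts. In the members Igfbp5, a matrix-binding carrier of insulin-like growth factors, was at 326 and 477 CPM in the CCl4 libraries, against 272 and 370.5 CPM in the control libraries. In Adamdec1 fibroblasts it was at 384 and 306 CPM in the CCl4 libraries, against 584 and 631 CPM in the control libraries (difference of log2 ratios 1.08, SE 0.19, edgeR adjusted p = 0.0118). In the members the groups overlapped, and in Adamdec1 fibroblasts both CCl4 libraries were lower. In Adamdec1 fibroblasts C4b was at 726 and 719 CPM in the CCl4 libraries, against 945 and 951 CPM in the control libraries, while in the members both CCl4 libraries were the higher ones, at the levels given above (difference of log2 ratios 0.63, SE 0.10, edgeR adjusted p = 0.00136). Igfbp4 was at 2196 and 2078 CPM in the CCl4 libraries, against 1873 and 1711 CPM in the control libraries, with log2 ratios of 0.24 in the members and -0.19 in Adamdec1 fibroblasts (difference of log2 ratios 0.42, SE 0.08, edgeR adjusted p = 0.0309).

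Haemoglobin genes had the most negative differences. In the members Hbb-bs was at 12.4 and 38.3 CPM in the CCl4 libraries, against 7.68 and 169 CPM in the control libraries, with the second control library highest. In Adamdec1 fibroblasts it was at 472 and 391.7 CPM in the CCl4 libraries, against 9.06 and 10.8 CPM in the control libraries, with both CCl4 libraries far above control (difference of log2 ratios -7.13, SE 0.81, edgeR adjusted p = 1.37e-05). The 6 erythroid markers summed to 59.0 and 127 CPM in the CCl4 libraries, against 11.1 and 438 CPM in the control libraries, counted in the members. The part of red cell transcripts in this result was not tested. Without the second control library Hba-a1, Hba-a2 and Hbb-bt lost their calls, the difference of Hbb-bt turned to 0.78 and that of Hbb-bs, still called, was -3.94.

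Emb was the gene outside the rule that differed from Ackr4 Grem1 fibroblasts (difference of log2 ratios -3.71, SE 0.64, edgeR adjusted p = 0.0248). Its levels, CCl4 libraries given first, were 3.33 and 5.39 against 23.9 and 17.96 CPM in the members. In Ackr4 Grem1 fibroblasts they were 49.5 and 16.5 against 6.92 and 18.1 CPM. The call was kept under 7 of 11 alternatives, and applying the rule to 1000 UMIs a cell turned the difference to 0.38. Grem1, a BMP antagonist, is counted in a sum of the rule that limits it in the members and favours it in the other gate, so its levels are given without a test. In the members it was at 134 and 134 CPM in the CCl4 libraries, against 75.9 and 109 CPM in the control libraries. In Ackr4 Grem1 fibroblasts it was at 868 and 936 CPM in the CCl4 libraries, against 1066 and 1273 CPM in the control libraries, with the groups in the opposite order.

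**Figure D4:**
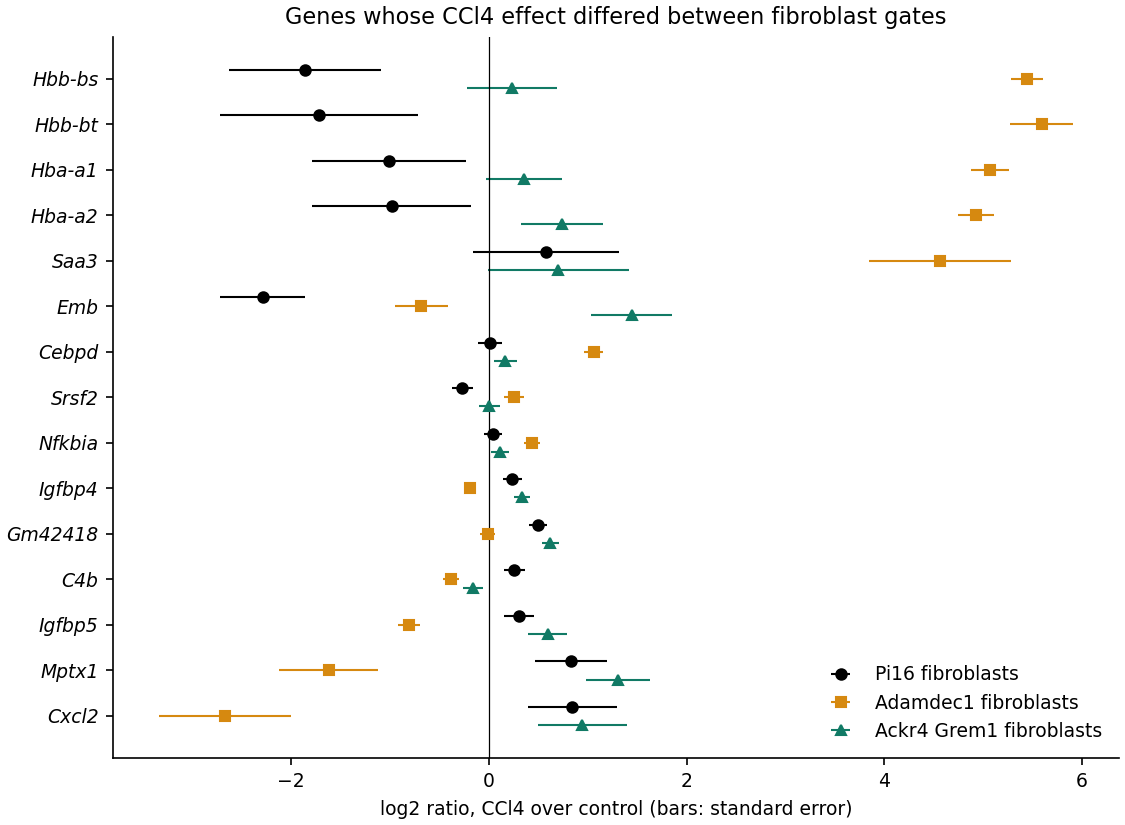
log2 ratio of CCl4 over control with its standard error for the 15 genes outside the rule whose CCl4 effect differed between the Pi16 fibroblasts and another gate, 1 row a gene. Black circles are the Pi16 fibroblasts, orange squares the Adamdec1 fibroblasts and green triangles the Ackr4 Grem1 fibroblasts. Cebpd lies at 0.01 in the Pi16 fibroblasts and at 1.06 in the Adamdec1 fibroblasts.

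Within the Pi16 fibroblasts, members with a Has1 count were compared with members without, after thinning every cell to 1000 UMIs. At that depth 197 and 187 members of the CCl4 libraries and 231 and 227 of the control libraries had a Has1 count, and 215, 184, 264 and 275 in the same order of libraries had none. The split was chosen after the data were seen and rests on a gene of the rule, so it is a description without a test. A cell without a Has1 count at this depth may still have expressed the gene.

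Immediate early genes went with Has1. Of 33 such genes with at least 25 CPM, 20 were higher in members with Has1 in all 4 libraries (60.6%), beside 10.4% of all 6171 genes at that level. Junb, a subunit of the transcription factor AP-1, averaged 923 CPM in members with a Has1 count and 418 CPM in those without, with log2 ratios of 0.90 to 1.36 over the libraries. Fosl2, another AP-1 subunit, averaged 321 CPM in members with a Has1 count and 126 CPM in those without (1.09 to 1.41). Nr4a1, an orphan nuclear receptor of the same response, averaged 1012 CPM in members with a Has1 count and 526 CPM in those without (0.79 to 1.09). Socs3, the feedback inhibitor of IL-6 type cytokines, averaged 447 CPM in members with a Has1 count and 218 CPM in those without (0.75 to 1.18). The direction was the same in all 4 libraries for each of these genes. Jun, by contrast, averaged 1327 CPM in members with a Has1 count and 1230.4 CPM in those without (-0.05 to 0.31), with libraries on both sides of 0.

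The substrate enzymes of hyaluronan synthesis went with Has1 too. Ugdh averaged 789 CPM in members with a Has1 count and 416 CPM in those without (0.57 to 1.13), and Gfpt2 averaged 561 CPM in members with a Has1 count and 385 CPM in those without (0.46 to 0.61). Of 11 hyaluronan genes other than Has1, 5 were higher with Has1 in all 4 libraries and 1 was lower. Follistatin (Fst) averaged 119.8 CPM in members with a Has1 count and 42.3 CPM in those without (0.58 to 1.43) and the matricellular protein Thbs1 713 CPM in members with a Has1 count and 399 CPM in those without (0.43 to 0.97). The other genes of the rule differed little: Pi16 averaged 2033 CPM in members with a Has1 count and 2231 CPM in those without (-0.41 to 0.14) and Mfap5 1206 CPM in members with a Has1 count and 1222 CPM in those without (-0.24 to 0.21). Adventitial genes as a list showed 6 of 27 higher and 3 lower in all 4 libraries, beside 10.4% of all genes higher. Ugdh and Gfpt2 belong to this list too and are among the 6.

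Members without Has1 carried more Myoc, Cmss1, Lars2, Cdkn1c and Mgp. Myoc, myocilin, a secreted matrix protein, averaged 39.97 CPM in members with a Has1 count and 169 CPM in those without (-1.92 to -1.23). Mgp, an inhibitor of calcification, averaged 1207 CPM in members with a Has1 count and 2022 CPM in those without (-0.86 to -0.63). Cdk8, which rose with CCl4, was also lower with Has1 (-1.64 to -0.78). The immunoglobulin genes Igha and Igkc were lower with Has1 in all 4 libraries (-2.02 to -0.81 and -1.64 to -0.56), and their part in the other differences was not tested.

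**Figure D5:**
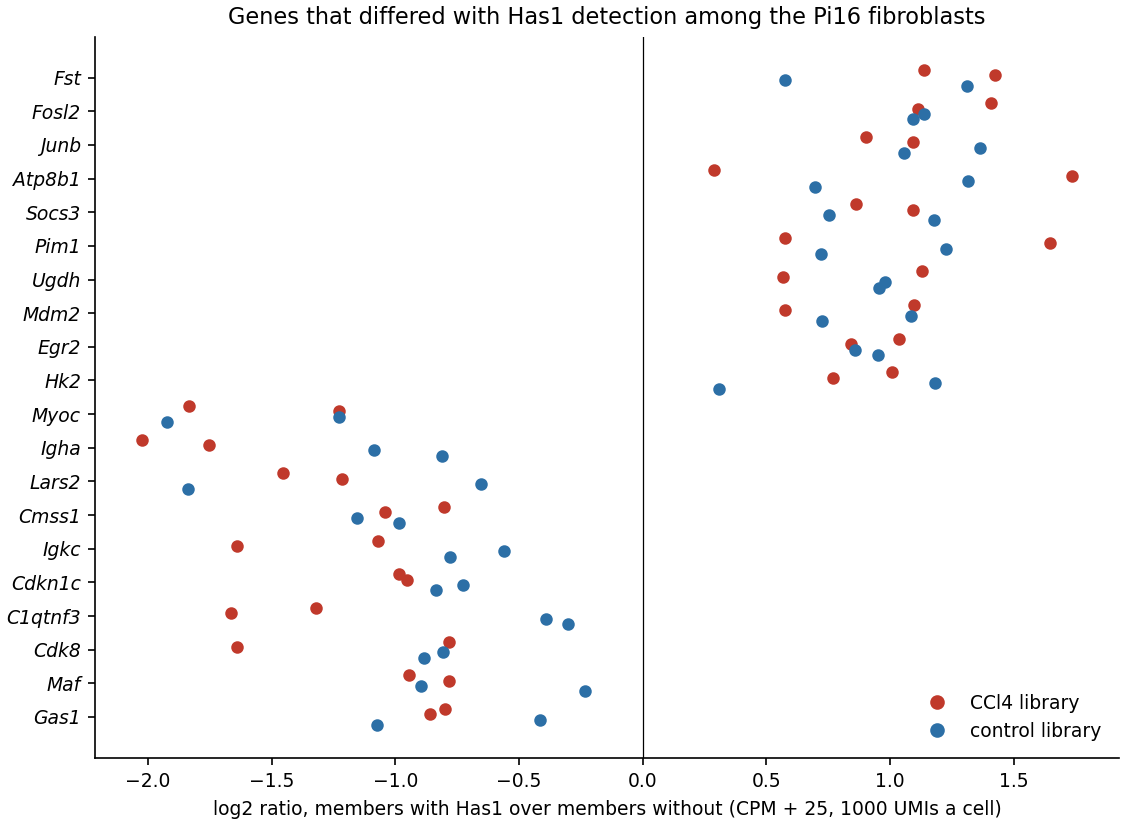
log2 ratio of members with a Has1 count over members without, per library, for 10 genes higher and 10 genes lower with Has1 in all 4 libraries. Counts were summed per library after thinning each cell to 1000 UMIs, and 25 CPM were added before the ratio. Junb lies between 0.90 and 1.36 and Myoc between -1.92 and -1.23.

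Members also varied by how far their marker sum led. The marker sum was divided by the total of the 3 sums, and members were placed in bins of under 70%, 70% to 90%, and 90% or more, limits chosen after the data were seen. The top bin held 14.3% and 14.8% of members in the CCl4 libraries and 14.1% and 16.9% in the control libraries, and the bottom bin 51.2% and 49.6%, against 50.1% and 45.4%. The top bin was shallower, with median depths of 2278 to 3569 UMIs against 3948.5 to 4896 UMIs in the bottom bin. It also held more plasma cell transcripts in every library but the second control library. In the top bin Igha was at 8464 and 321 CPM in the CCl4 libraries and 42899.8 and 561 CPM in the control libraries. In the bottom bin it was at 215, 213, 6197 and 2617 CPM in the same order. The part of plasma cell transcripts and that of depth in the values below was not tested. Genes with high values in the top bin included some that stood above the other gates. From the bottom to the top bin Stmn4 averaged 93.9, 241 and 386 CPM, Adamts5 199.7, 523 and 761 CPM, Efhd1 27.0, 107 and 139 CPM and Efemp1, a fibulin of the extracellular matrix, 552, 1032 and 1448 CPM. Lower in the top than in the bottom bin were C1qtnf3 at 209, 57.6 and 17.6 CPM, Sfrp1 at 340.0, 176 and 77.0 CPM and Mgp at 2287, 912 and 742 CPM. Lepr, the leptin receptor, averaged 229.6, 132 and 58.3 CPM. The bins are ranges of a score that the rule also uses. For these 8 genes the top bin differed from the bottom bin in the direction given in each of the 4 libraries. Mgp in the first control library was lowest in the middle bin. The 8 genes were picked by the ratio between these bins, so their agreement over libraries is a description and no test. The share of all genes that agreed in this way was not counted.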

How the data were processed

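Single-cell RNA from colon of 2 CCl4 and 2 control libraries was measured as UMI counts per gene and cell. The deposited matrices hold counts made by the authors with PISA 0.12b, per the file headers, on GRCm38, per the submitters' processing notes. The aligner and the counting settings are not given in the sources used here. Cells were filtered and gated as the report describes, with markers that also define immune and epithelial cells for comparison, and doublets were kept. Counts of the members were summed per library and tested with edgeR 4.0.16 (quasi-likelihood, TMM scaling, low counts filtered, Benjamini-Hochberg 0.05) in R 4.3.3. The CCl4 effect was compared between gates with the library as a block. Shares were compared by exact permutation over libraries. Matrices were handled in Python 3.11.15 with scanpy 1.11.5, and DESeq2 1.42.0 was an alternative. Both tests were tested on simulated data. The labels do not say whether replicate numbers pair the libraries, so the tests carry no replicate block. The correlation of deviations was 0.0716 for same-numbered libraries, which with 2 libraries a group cannot exclude pairing.

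The members and gene lists were chosen with earlier results of these data known. Called genes averaging 50 CPM or more in CCl4 or in control were named, up to 12 in each direction, leaving out Gm and Rik symbols, together with called list members, the 5 rule genes and the 15 genes most above the other gates. Counting error only is covered by binomial intervals.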

Additional observations from a re-analysis of the deposited data

Results flagged for a closer look

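The effect of CCl4 differed between the members and another fibroblast gate by a test of the difference itself for 15 genes outside the rule. Values are the log2 ratio of CCl4 over control in the members minus that in the other gate (edgeR, adjusted p under 0.05). Against Adamdec1 fibroblasts the difference was -7.13 for Hbb-bs, -7.10 for Hbb-bt, -5.92 for Hba-a1 and -5.76 for Hba-a2. It was -3.72 for Saa3, -1.05 for Cebpd, -0.54 for the splicing factor Srsf2 and -0.41 for Nfkbia. Positive differences were 0.42 for Igfbp4, 0.49 for Gm42418, 0.63 for C4b and 1.08 for Igfbp5. The pentraxin Mptx1 had 2.26 and the neutrophil chemokine Cxcl2 2.97. Against Ackr4 Grem1 fibroblasts the difference was -3.71 for Emb. Grem1 belongs to the rule and is left out. Cebpd passed under all 11 alternatives tried, and Nfkbia passed under 3 of them.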

How the results depend on the processing

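Of the 18 calls in the members, Sycn, Klk1, Muc2, Spink4, Oit1, Lgals4 and Guca2a passed under all 13 alternatives. The count was 66 without the low-count filter, 64 with a replicate block, 8 in members with a Pi16 count, 30 with the rule applied to 1000 UMIs a cell and 45 to 85 without 1 library each. DESeq2 called 18 genes, 15 of them shared. The labels do not say whether library numbers pair the samples, so the replicate block result of 64 is given here only. Against Adamdec1 fibroblasts the 15 differences became 29 without the filter and 5 without the library block. The genes changed as well as the count: DESeq2 kept 7 of the 15, and the rule applied to 1000 UMIs a cell kept 5. Igfbp5 lost its call with DESeq2 and without the library block. Against Ackr4 Grem1 fibroblasts the 2 became 9 without the filter, 0 without the library block (633 at an unadjusted p under 0.05 in edgeR, and 2 calls by DESeq2 with the block), 1 when cells needed 500 genes and a mitochondrial share up to 10%, and 4 to 14 without 1 library each. The sign changed in 3 values: Emb to 0.10 between groups and 0.38 between gates when the rule was applied to 1000 UMIs a cell, and Hbb-bt, which ranged from -8.20 to 0.78 without 1 library each, to 0.78 without control replicate 2. The cause was not tested. The share of members stayed lower with CCl4 with marker sums of at least 3, stricter cell filters, doublet removal, the rule at 1000 UMIs and each library left out, by -0.570 to -1.69 percentage points of gated fibroblasts and -1.86 to -2.22 of filtered cells. With members limited to those with a Pi16 count, chosen after seeing the data, the differences were -0.111 points of gated fibroblasts, where the groups overlapped, and -1.59 of filtered cells. With 2 libraries a group, depth of 1670026 to 2561620 summed counts limits what can be seen in genes of low level.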
